A study of Rattus norvegicus with 52 samples.

Results

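The subject is the rat dorsal root ganglion 14 d after a lesion of the sciatic nerve, described across all 8455 probes of a 2-colour oligonucleotide array. The members are the 3 hybridisation channels titled SN14d and the 3 titled CON(SN), chosen by their titles, which are 6 of the 52 channels of the series. The SN14d material was total RNA from 1 pool of the lumbar ganglia L4, L5 and L6 of 3 rats, 14 d after the lesion labelled SN. The CON(SN) material was 1 such pool of 3 rats and served as the time zero of the SN samples. SN14d was also set against SN7d, 1 pool taken 7 d after the same lesion, and against DR14d, 1 pool taken 14 d after the lesion labelled DR, which has a control pool of its own, CON(DR). Each of these groups had 3 channels. The labels give the abbreviations only. Knowledge of the study, not the labels, gives SN as a lesion of the sciatic nerve, which holds the peripheral axons of these neurons, and DR a lesion of the dorsal root, which holds their central axons. Strain, sex, age and the kind of control operation are not given in the sources used here.

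The 3 channels of a group were repeated hybridisations of a single pool. The p-values below therefore measure only the spread between hybridisations, and the lesion cannot be told apart from the animals that happened to enter each pool. In bulk RNA of a ganglion, fewer cells of a type and less RNA per cell cannot be told apart either. All 20 measured sensory neuron markers lay above the lower quartile of the probes, and the sum of their intensities ran from 181770 to 197176 in the SN14d channels and from 196693 to 206772 in the control channels.

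Sensory neurons of the dorsal root ganglion send one axon branch to the periphery and another into the spinal cord. After the peripheral branch is cut, the cell body is known to switch to a growth state: transcription factors such as Atf3 are induced, growth-associated proteins are made, and the peptide content changes from those of pain transmission towards galanin, neuropeptide Y and VIP. Satellite glia around the cell bodies and macrophages in the ganglion are also known to react.

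Values are linear intensities as the authors deposited them, already normalised. Channel medians were 121 to 123 in the 6 channels and 120 to 125 over all 52. Differences are in log2 units with their standard error (SE), from a linear model with 16 groups and dye as terms, fitted to all 52 channels with limma and called the channel fit below. A probe was called at a Benjamini-Hochberg adjusted p below 0.05 over all probes together with a change of at least 1.5-fold. Both groups held 2 Cy3 channels and 1 Cy5 channel. The lower quartile of the probes was 68 to 69 in the 6 channels. No background level or detection flag was analysed here, so the size of a difference is uncertain where a whole group lies below that quartile. Among the genes called against CON(SN) and named here this held for the control channels of Vip and Cd6 and the SN14d channels of Mcpt10, Mcpt8 and Azgp1. The files do not say which 2 channels shared an array. Channels were joined into 26 inferred arrays through the authors' deposited coefficients, and the differences between the dyes of each array were fitted in turn. The results of this second fit are given as within-array values. In the inferred layout no SN14d channel shared an array with a CON(SN) channel, so that the within-array contrast runs through other times.

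At 14 d 153 probes were called against CON(SN), which was 1.81% of the probes. Of these, 124 were higher (1.47%) and 29 lower (0.343%). They stood for 98 named genes that rose and 23 that fell. The counts of the gene lists below are to be read beside these shares, since a list with few or no calls lies near them. The median difference over all probes was -0.01. The SN14d and control channels did not overlap for any of the 153 called probes, and they did not overlap for 18.0% of all probes (9.9% higher and 8.09% lower). At least 2-fold changes were found for 63 called probes that were higher and 11 that were lower, and at least 4-fold changes for 9 and 3. Within arrays 130 probes were called, 1.25% higher and 0.284% lower. Both fits called 92 probes in the same direction, 60.1% of the calls of the channel fit and 70.8% of those within arrays. The 16 largest rises and the 12 largest falls are described first. They were chosen among called genes without overlap of the channels, so their lack of overlap is no separate result. All 16 rises were also called within arrays, and 11 of the 12 falls.

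**Figure D1:**
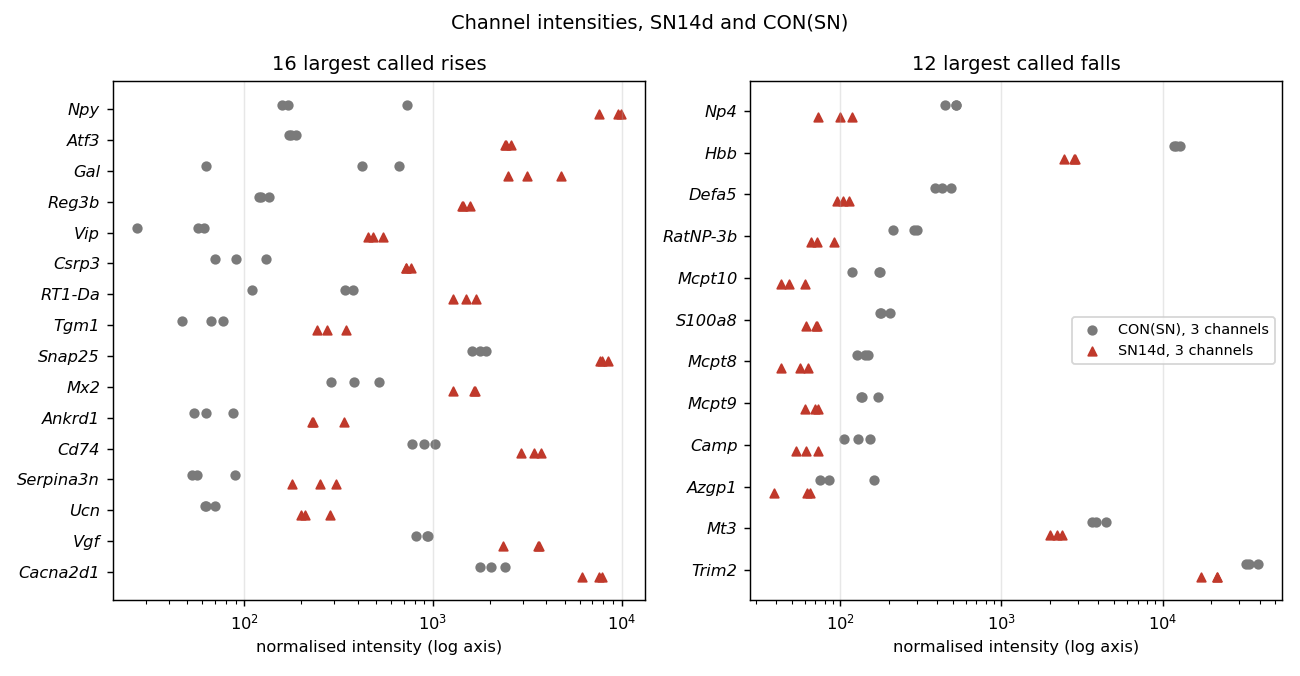
Normalised intensity of each channel (log axis) for the 16 genes with the largest called rise and the 12 with the largest called fall. Grey circles are the 3 CON(SN) channels and red triangles the 3 SN14d channels. The groups do not overlap for any of these genes, which was a condition for choosing them, and the control channels of Npy and Gal spread most widely.

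Neuropeptides are signalling peptides that sensory neurons store in dense-core vesicles. Of 26 measured genes of neuropeptides and secretogranins 5 rose and 1 fell, with a median of 0.14 over the list. Npy, which encodes neuropeptide Y, read 7608, 9572 and 9902 in the SN14d channels and 171, 158 and 728 in the control channels. All SN14d channels lay far above the highest control channel, and the last control channel stood above the others. The difference was 5.05 ± 0.46, or 33.2-fold (adjusted p = 1.15e-10), and 3.48 within arrays, where it was called (adjusted p = 5.21e-06). The channel fit gave 5.78 without CON(SN) replicate 3 and the authors' deposited table gave 3.66.

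Gal, which encodes galanin, a peptide that injured sensory neurons are known to make, read 4784, 3156 and 2514 at 14 d against 423, 63 and 663 in the control. Its groups were apart, and the control channels themselves spread over a wide range. The difference was 3.69 ± 0.66 (adjusted p = 0.000322) in the channel fit, 2.70 without CON(SN) replicate 2 and 2.52 within arrays (adjusted p = 9.19e-06). Vip, which encodes vasoactive intestinal peptide, read 544, 484 and 455 against 61, 27 and 57. Every SN14d channel was above every control channel. The measured difference was 3.44 ± 0.26 (adjusted p = 1.17e-12) and 3.10 within arrays, but all 3 control channels lay below the lower quartile of the probes, so its size is uncertain.

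Ucn and Vgf rose less. Ucn encodes urocortin, a peptide of the corticotropin-releasing factor family, and read 284, 200 and 210 against 62, 63 and 70, a difference of 1.82 ± 0.19 (adjusted p = 3.03e-09). Vgf encodes a secreted precursor protein that nerve growth factor is known to induce, and read 2348, 3589 and 3670 against 931, 941 and 812, a difference of 1.81 ± 0.21 (adjusted p = 5.63e-08). Within arrays both were called, at 1.58 and 1.46. The 1 member that fell was Adcyap1, named after its values were seen, which encodes the peptide PACAP. It read 4099, 5132 and 5097 against 6702, 8461 and 6709, a difference of -0.61 ± 0.15 (adjusted p = 0.0196), and its within-array value of -0.66 was not called (adjusted p = 0.215). Calca, which encodes the pain peptide CGRP and was named after its values were seen, was not called, at -0.43 in the channel fit and 0.08 within arrays.

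Of these peptide genes Vip, Ucn and Vgf have a start-proximal match to the letters of the cAMP response element, and their stretches are shown because they are the named rises that hold it. The promoter table of RefSeq (build GRCr8; 250 bases before to 50 after each gene's start) held 11 of the 16 named rises and 9 of the 12 named falls. The letters TGACGT, searched on both strands, were found in 3 of the 11 rises (Vip, Ucn and Vgf), in 0 of the 9 falls and in 7.94% of all 33469 promoters of the table. The full palindrome TGACGTCA, which holds TGACGT, was found in 2 of the rises (Ucn and Vgf), in 0 of the falls and in 1.83% of all promoters. The letters TGACTCA, the site of AP-1, were found in 0 of the rises, in 2 of the falls (Hbb and Trim2) and in 4.63% of all promoters. A match is a description of letters and no binding was measured. Each line gives the 150 bases that end at the base before the start, 5′ to 3′ on the strand of the gene, with the match in capitals.
Vip, chr1:44470330-44470479 (plus strand): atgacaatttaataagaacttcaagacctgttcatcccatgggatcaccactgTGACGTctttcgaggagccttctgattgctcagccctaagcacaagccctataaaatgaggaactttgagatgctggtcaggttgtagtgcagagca
Ucn, chr6:30957936-30958085 (plus strand): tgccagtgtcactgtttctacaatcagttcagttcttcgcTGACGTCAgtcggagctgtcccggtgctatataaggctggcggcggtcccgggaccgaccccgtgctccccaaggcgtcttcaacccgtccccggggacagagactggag
Vgf, chr12:25277021-25277170 (minus strand): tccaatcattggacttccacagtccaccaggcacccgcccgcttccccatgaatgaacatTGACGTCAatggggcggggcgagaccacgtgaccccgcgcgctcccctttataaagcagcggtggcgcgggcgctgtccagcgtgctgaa

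Of 24 measured neuropeptide receptors 1 rose. That was Galr3, a galanin receptor, at 197, 167 and 168 against 113, 128 and 109, a difference of 0.60 ± 0.17 (adjusted p = 0.0441), and 0.70 within arrays, where it was also called. By channels its call was lost whichever of the 6 channels was left out (0.52 to 0.67).

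Among injury-induced transcription factors 2 of 29 measured genes rose and none fell, with a median of 0.18. Atf3, a stress-induced member of the ATF/CREB family and a standard marker of injured sensory neurons, read 2426, 2589 and 2407 at 14 d against 187, 176 and 173. The spread within both groups was small beside the gap, and the difference was 3.79 ± 0.22, or 13.85-fold (adjusted p = 3.99e-16), with 3.68 within arrays. Klf7, a Krüppel-like factor, read 197, 174 and 222 against 109, 70 and 100, a difference of 1.11 ± 0.26 (adjusted p = 0.0123). Its within-array value was 0.41 and was not called, and its call by channels was lost without CON(SN) replicate 2 (0.91), SN14d replicate 1 (1.11) or SN14d replicate 3 (1.02).

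Other factors known from nerve injury were not called at 14 d in either fit. Jun, a partner of Atf3 in AP-1, read 347, 380 and 396 against 298, 337 and 216, a difference of 0.42 ± 0.27 (adjusted p = 0.649). Smad1, a transducer of bone morphogenetic protein signals, had 0.70 ± 0.23 (adjusted p = 0.118) with channels of 354, 406 and 431 against 244, 257 and 229. Stat3, which carries signals of the interleukin-6 family, differed by 0.15 ± 0.29 and Sox11 by -0.25 ± 0.30.

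Growth-associated effector genes were the list with the highest median, 0.68 over 35 measured members. The list was drawn up with earlier results of these data known, so its rank is no separate result. Of the 35 members 13 rose and none fell in the channel fit, and 13 rose and none fell within arrays. Reg3b, a secreted lectin of the regenerating-islet family, read 1425, 1450 and 1564 against 135, 123 and 120, a difference of 3.55 ± 0.29, or 11.75-fold (adjusted p = 6.47e-12). Csrp3, a muscle LIM protein that binds actin, read 770, 719 and 724 against 91, 70 and 131, a difference of 2.97 ± 0.20 (adjusted p = 3.54e-14). The within-array values of both, 3.55 and 2.99, were close to those of the channels.

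Tgm1, a transglutaminase that cross-links proteins, read 347, 244 and 274 against 67, 47 and 77, a difference of 2.19 ± 0.22 (adjusted p = 1.94e-09). Ankrd1, an ankyrin-repeat protein best known from stressed muscle, read 336, 232 and 228 against 87, 63 and 54, a difference of 1.97 ± 0.21 (adjusted p = 4.13e-09). Both groups of channels were apart for each gene, and the within-array values were 2.46 and 1.70. Sprr1a, a small proline-rich protein of the cornified envelope known from axon regrowth, rose less, by 0.91 ± 0.24 (adjusted p = 0.0321). It read 112, 125 and 104 against 55, 44 and 90, and its within-array value of 0.56 was not called (adjusted p = 0.0884). The call by channels held only without CON(SN) replicate 3, and the other 5 fits gave 0.67 to 0.99. Arg1, arginase of the polyamine pathway, named after its values were seen, read 365, 282 and 308 against 113, 108 and 80, a difference of 1.67 ± 0.21 with 1.98 within arrays.

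Gap43, the growth cone protein that is the usual marker of axon growth, had 11838, 8676 and 9205 in the SN14d channels and 3580, 1817 and 3495 in the control channels. These did not overlap, but the probe varied strongly over the whole series. The channel fit gave 1.79 ± 0.94 and did not call it (adjusted p = 0.557), and within arrays it was called at 1.71 (adjusted p = 9.12e-06). The dimmer second probe of Gap43 was called in the channel fit, at 1.42 ± 0.21 (adjusted p = 1.47e-05). Gadd45a, a gene of growth arrest and DNA damage named after its values were seen, was called within arrays at 2.04 and not by channels (0.25 ± 0.81). Its SN14d channels were 2024, 1408 and 38, and the last of them lay below all control channels, 455, 319 and 445.

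**Figure D2:**
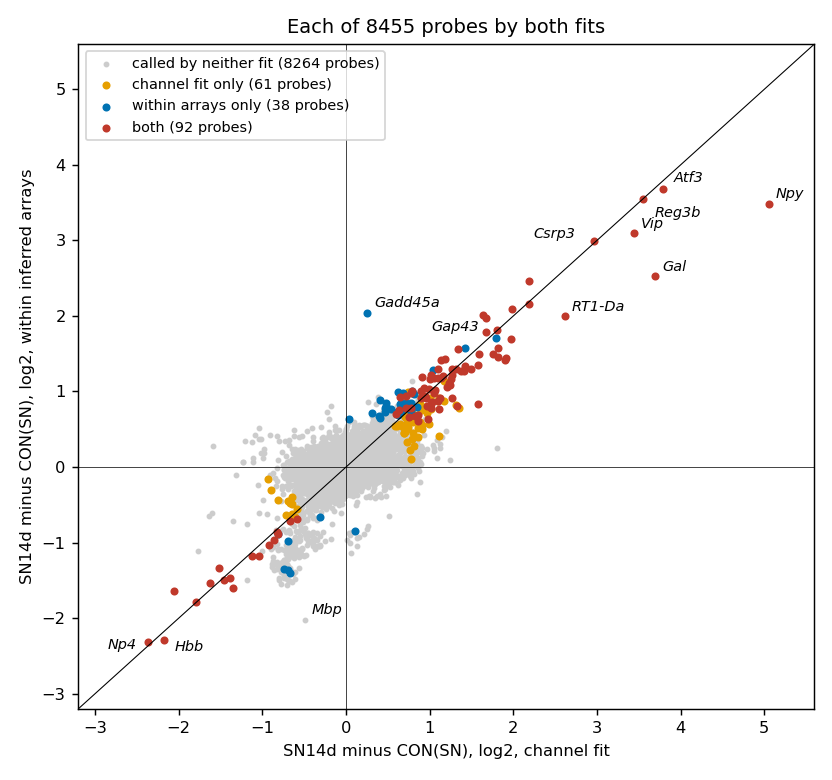
Each probe's log2 difference of SN14d from CON(SN), by the channel fit (horizontal) and within the inferred arrays (vertical), with the line of equality. Colours mark which fit called the probe: 92 probes were called by both, and Npy, Gal and RT1-Da lie below the line, with smaller values within arrays than by channels.

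Of the voltage-gated ion channels 1 of 44 measured genes rose and none fell. Cacna2d1, the alpha-2-delta subunit of calcium channels that gabapentin binds, read 6186, 7587 and 7890 against 2021, 2410 and 1766. The groups did not overlap, and the difference was 1.81 ± 0.17 (adjusted p = 4.68e-10) with 1.81 within arrays. None of the 27 nociceptor receptors and sensory transducers was called in either fit, and their median was 0.00. Few or no calls in such a list are near the share over all probes, 1.81% by channels and 1.54% within arrays. The serotonin receptor genes Htr3a and Htr3b had the largest values, -0.62 (adjusted p = 0.183) and -0.60 (adjusted p = 0.421). Among 47 neurotransmitter receptors Gabbr2, a subunit of the GABA-B receptor, rose by 0.71 ± 0.20 (adjusted p = 0.0454), with channels of 1474, 1379 and 1366 against 792, 926 and 872, and was not called within arrays (0.66). Its call by channels was lost whichever channel was left out (0.62 to 0.76).

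Among 38 synaptic vesicle and release genes 3 rose, all of them in both fits, and none fell. Snap25, a SNARE protein of vesicle fusion, read 7827, 7679 and 8479 against 1617, 1774 and 1901. Both groups were tight and far apart, and the difference was 2.18 ± 0.20, or 4.54-fold (adjusted p = 9.35e-11). Vsnl1, a neuronal calcium sensor, read 320, 327 and 281 against 141, 164 and 130, a difference of 1.10 ± 0.22 (adjusted p = 0.00126). Syt4, a synaptotagmin of dense-core vesicles, read 1532, 1876 and 1812 against 948, 1083 and 974, a difference of 0.79 ± 0.19 (adjusted p = 0.0128). The call of Syt4 was lost without CON(SN) replicate 1 (0.74) or 3 (0.80) and without SN14d replicate 2 (0.75) or 3 (0.78). The median of the list was -0.03. None of 28 neurofilament, tubulin and actin genes was called by channels, nor any of 42 genes of oxidative phosphorylation or 23 of cholesterol synthesis. With 1.81% of all probes called by channels, this is no result about these lists.

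Most sensory neuron markers were not called, like most probes, of which 1.81% were called in either direction. Of 20 measured markers Snap25 rose, Avil fell and 18 were not called, and the median was -0.14. Avil, which encodes the actin-binding protein advillin, read 6039, 7528 and 7625 against 11517, 12363 and 9881, a difference of -0.67 ± 0.17 (adjusted p = 0.025). Its within-array value of -0.67 was not called (adjusted p = 0.113), and its call by channels was lost without CON(SN) replicate 1 (-0.65), CON(SN) replicate 2 (-0.60) or SN14d replicate 1 (-0.56).

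**Figure D3:**
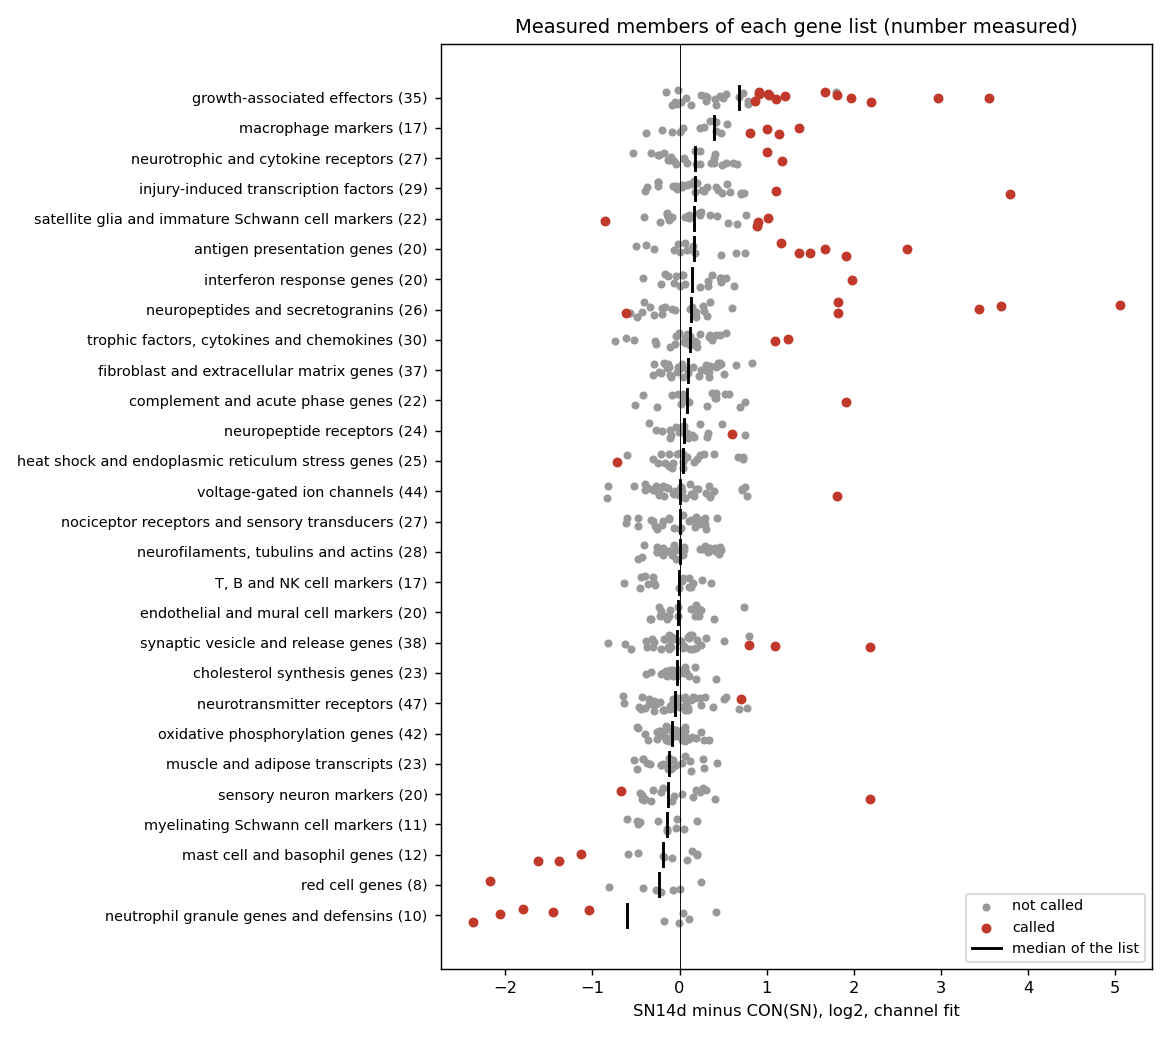
Log2 difference of SN14d from CON(SN) by the channel fit for the measured members of each gene list (1 point per gene; points are spread vertically only to keep them apart; the bar is the list's median). Red points passed the test. Growth-associated effectors have the highest median, 0.68, and neutrophil granule genes the lowest, -0.61. The lists were drawn up with earlier results of these data known, so the order of their medians is no test.

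Of 20 measured antigen presentation genes 6 rose, 14 were not called and none fell, with a median of 0.17, and within arrays 7 rose. RT1-Da, the rat class II alpha chain of the D locus, read 1699, 1500 and 1283 against 377, 110 and 343, a difference of 2.62 ± 0.34 (adjusted p = 6.42e-07). The second control channel was low, and the difference was 2.00 without it and 1.99 within arrays. Cd74, the invariant chain that accompanies class II molecules, read 2942, 3752 and 3419 against 897, 772 and 1025, a difference of 1.91 ± 0.25 (adjusted p = 8.77e-07) with 1.44 within arrays.

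RT1-Ba and RT1-Db1, further class II chains, rose too. RT1-Ba read 772, 545 and 681 against 201, 206 and 214, a difference of 1.67 ± 0.27 (adjusted p = 4.7e-05), and its second probe gave 1.76. RT1-Db1 read 1896, 1491 and 1296 against 500, 479 and 685, a difference of 1.49 ± 0.20 (adjusted p = 1.62e-06), and its 2 other probes were called too. These chains are closely related in sequence, and whether the probes tell them apart was not tested.

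Macrophage markers rose in 4 of 17 measured members, with a median of 0.40, and none fell. Ctss, the lysosomal protease cathepsin S, which also cuts the invariant chain, read 927, 825 and 784 against 317, 389 and 281, a difference of 1.37 ± 0.21 (adjusted p = 1.63e-05). Aif1, the macrophage and microglia protein IBA1, read 789, 824 and 760 against 359, 389 and 333, a difference of 1.14 ± 0.22 (adjusted p = 0.00077). Both were called within arrays, at 1.27 and 1.18. Csf1r, the receptor of macrophage colony-stimulating factor, rose by 1.01 ± 0.18 and Cd53, a leukocyte tetraspanin, by 0.81 ± 0.22, and neither was called within arrays. A dimmer second probe of Csf1r was not called, at 0.37 ± 0.29 (adjusted p = 0.732) by channels and -0.14 within arrays. Cd53 lost its call whichever channel was left out (0.71 to 0.88). The summed intensity of the 17 markers ran from 36121 to 41592 at 14 d and from 23328 to 38134 in the control, so these ranges overlapped. None of 17 markers of T, B and NK cells was called in either fit, beside 1.81% of all probes by channels and 1.54% within arrays.

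Of 30 measured trophic factors, cytokines and chemokines 2 rose and none fell, with a median of 0.12. Ccl2, the chemokine MCP-1, read 446, 492 and 476 against 193, 244 and 166, a difference of 1.25 ± 0.21 (adjusted p = 0.000126). Csf1, the ligand of Csf1r, read 327, 262 and 276 against 128, 139 and 136, a difference of 1.10 ± 0.14 (adjusted p = 6.42e-07). Within arrays both were called, at 1.09 and 1.18. Gfra1, the co-receptor of GDNF, rose by 1.17 ± 0.22 (adjusted p = 0.000691) with channels of 2613, 2466 and 2203 against 1093, 1105 and 1029. With Csf1r it made up the 2 of 27 neurotrophic and cytokine receptors that rose, and its within-array value of 1.15 missed the threshold (adjusted p = 0.0537).

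Single members of 2 further immune lists rose. Mx2, an interferon-induced GTPase with antiviral activity, read 1280, 1648 and 1670 against 380, 519 and 289, a difference of 1.98 ± 0.24 (adjusted p = 9.25e-08) with 2.09 within arrays. It was the only 1 of 20 interferon response genes called by channels. Serpina3n, a secreted inhibitor of serine proteases, read 305, 180 and 253 against 56, 53 and 89, a difference of 1.91 ± 0.33 (adjusted p = 0.00019) with 1.42 within arrays. It was the 1 of 22 complement and acute phase genes that was called. A dimmer probe of the complement gene C3 did not stand for its gene and was named after its values were seen. It was called by channels (0.90) and not within arrays (0.51).

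Of 22 markers of satellite glia and immature Schwann cells 3 rose and 1 fell in the channel fit, and only the fall was called within arrays. Gfap, the intermediate filament of reactive glia, read 371, 341 and 338 against 213, 193 and 160, a difference of 0.90 ± 0.20 (adjusted p = 0.00677), and 0.76 within arrays (adjusted p = 0.0676). A dimmer second probe of Gfap gave -0.03 ± 0.22. Ncam1, a neural cell adhesion molecule, rose by 1.02 ± 0.26 and Apod, the lipid carrier apolipoprotein D, by 0.89 ± 0.20. The calls were lost for Ncam1 whichever channel was left out (0.93 to 1.07), for Gfap without CON(SN) replicate 3 (0.77) or SN14d replicate 1 (0.87), and for Apod without CON(SN) replicate 1 (0.80). Mt3, a metal-binding metallothionein, fell: it read 1992, 2374 and 2227 against 3853, 4466 and 3653, a difference of -0.86 ± 0.17 (adjusted p = 0.00132) with -0.97 within arrays.

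None of 11 markers of myelinating Schwann cells was called in either fit, and their median was -0.15. Pmp22, a major myelin protein, read 18776, 37986 and 36327 against 44042, 45925 and 44712, a difference of -0.60 ± 0.18 (adjusted p = 0.0907). Its channels did not overlap, and the first SN14d channel was much dimmer than the others. Mbp, myelin basic protein, had -0.49 ± 0.64 by channels and -2.02 within arrays, neither called. None of 37 genes of fibroblasts and extracellular matrix, 20 of endothelial and mural cells or 23 of muscle and fat was called by channels. Over all probes the share was 1.81%, so the lack of calls is no result about these lists.

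Of 10 measured genes of neutrophil granules 5 fell and none rose, with a median of -0.61, and within arrays 6 fell. This list too was drawn up with earlier results of these data known. Np4, a defensin of rat neutrophils, read 73, 100 and 119 at 14 d against 522, 519 and 444, a difference of -2.37 ± 0.24 (adjusted p = 1.63e-09). Defa5, another alpha-defensin, read 95, 104 and 113 against 426, 488 and 386, a difference of -2.06 ± 0.23 (adjusted p = 2.98e-08). In both genes every SN14d channel was far below the lowest control channel.

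RatNP-3b, a further defensin, read 66, 92 and 72 against 288, 300 and 211, a difference of -1.79 ± 0.27 (adjusted p = 1.8e-05). S100a8, a calcium-binding protein of neutrophils and monocytes, read 72, 71 and 61 against 180, 202 and 177, a difference of -1.46 ± 0.35 (adjusted p = 0.0136). Camp, the antimicrobial peptide cathelicidin, read 61, 73 and 53 against 128, 152 and 105, a difference of -1.04 ± 0.24 (adjusted p = 0.00806). All 5 were called within arrays, between -2.31 and -1.17. By channels S100a8 lost its call without CON(SN) replicate 2 (-1.41) or 3 (-1.46) or SN14d replicate 3 (-1.36), and Camp without CON(SN) replicate 2 (-0.91) or SN14d replicate 3 (-0.92). The defensins resemble each other in sequence, and whether their probes share transcripts was not tested. The summed intensity of the 10 genes, which holds the 5 that fell, ran from 676 to 811 at 14 d and from 1633 to 1937 in the control. Of the 10 genes 3 had a positive difference.

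Genes of mast cells and basophils fell in 3 of 12 measured members, and none rose. Mcpt10, a mast cell protease, read 48, 60 and 43 against 175, 176 and 118, a difference of -1.63 ± 0.21 (adjusted p = 3.46e-07). Mcpt8 read 63, 56 and 43 against 149, 143 and 127, a difference of -1.39 ± 0.21, and Mcpt9 read 70, 73 and 60 against 135, 172 and 137, a difference of -1.13 ± 0.25. The SN14d channels of Mcpt10 and Mcpt8 all lay below the lower quartile of the probes, so the sizes of these falls are uncertain. All 3 are related serine proteases, and all 3 were called within arrays. Mcpt9 lost its call by channels without CON(SN) replicate 2 (-1.0). The other 9 members were not called in either fit. Tpsab1 and Fcer1a, defining genes of mast cells, lay below the lower quartile of the probes in level.

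Of 8 measured red cell genes 1 fell. Hbb, the beta chain of haemoglobin, read 2441, 2819 and 2882 at 14 d against 12848, 11791 and 12175 in the control. The groups were far apart, with a difference of -2.18 ± 0.19, or 4.53-fold lower (adjusted p = 6.63e-11), and -2.29 within arrays. A second, dim probe of Hbb gave -0.22 ± 0.27 and was not called (adjusted p = 0.862). Alas2, the red cell enzyme of haem synthesis named after its values were seen, had -0.81 ± 0.23 and missed the threshold by channels (adjusted p = 0.05) but was called within arrays at -0.89. The red cell sum ran from 3486 to 3765 at 14 d and from 12779 to 13869 in the control. Hbb alone made up most of it, with means of 2714 ± 239 and 12271 ± 535 (SD, n = 3), and the other 7 genes were not called by channels. The neutrophil and mast cell sums were also lower at 14 d, with no overlap of the ranges. These sums hold the called genes themselves, so they are no separate result. The amount of blood left in each pool of ganglia is not given in the sources used here, and its part in these falls was not tested.

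Trim2, a ubiquitin ligase that binds neurofilaments, and Azgp1, a secreted zinc-binding glycoprotein, belonged to no list. Trim2 read 21676, 21646 and 17225 against 33146, 34305 and 39261, a difference of -0.82 ± 0.16 (adjusted p = 0.000962) with -0.86 within arrays. A second, dim probe of Trim2 gave -0.21 ± 0.21. Azgp1, with all SN14d channels below the lower quartile, read 62, 65 and 39 against 161, 75 and 85, a difference of -0.90 ± 0.25 (adjusted p = 0.0439), and was not called within arrays (-0.30). It kept its call only without CON(SN) replicate 2 or SN14d replicate 2, and the other 4 fits gave -1.04 to -0.57. Among heat shock genes, 1 of 25 was called: Cryab, the chaperone alpha-B-crystallin, fell by 0.72 on the log2 scale (adjusted p = 0.0127), and its within-array value of -0.63 was not called. Cryab lost its call without CON(SN) replicate 2 (-0.70) or 3 (-0.72) or SN14d replicate 3 (-0.59).

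The change from the preceding time was taken from SN14d against SN7d, which needs no control channels. In the channel fit 218 probes were called, 2.58% of all, of which 1.64% were higher and 0.934% lower at 14 d. The within-array fit called 36 probes (0.426%), of which 0.378% were higher and 0.0473% lower, and 28 were called by both fits, 12.8% of the calls by channels. The count by channels depended on single hybridisations: it was 674 without SN7d replicate 1 and 46 without SN14d replicate 2. SN14d and SN7d channels did not overlap for 24.5% of all probes.

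Genes of both fits are described first. Snap25 read 7827, 7679 and 8479 at 14 d against 3577, 3518 and 3042 at 7 d, a difference of 1.25 ± 0.20 (adjusted p = 0.000173) with 1.23 within arrays. Mx2 read 1280, 1648 and 1670 against 420, 506 and 511, a difference of 1.67 ± 0.24 (adjusted p = 2.69e-05) with 1.52 within arrays. Its 7 d channels were near those of the control, 380, 519 and 289. Sv2b, a membrane protein of synaptic vesicles, read 2017, 1223 and 1122 against 5573, 5086 and 3850, a difference of -1.77 ± 0.34 (adjusted p = 0.00235) with -2.09 within arrays. Sv2b at 14 d was not called against CON(SN), which read 2594, 2957 and 1991. Pawr, a pro-apoptotic leucine zipper protein, read 187, 152 and 119 against 57, 51 and 35, a difference of 1.69 ± 0.22 (adjusted p = 1.48e-05) with 1.06 within arrays, of uncertain size because its 7 d channels lay below the lower quartile. Zdhhc22, a palmitoyltransferase, rose by 1.37 ± 0.25 (adjusted p = 0.00126) with 0.77 within arrays.

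The other genes with the largest changes from 7 d did not pass within arrays. Of the 8 largest rises 3 were called there, namely Pawr, Mx2 and Zdhhc22, and the other 5 (Slc7a8, Stag2, Lgals2, Syt8 and Alpl) were not. Of the 8 largest falls only Sv2b was called there. The other falls, Limk2, Slc6a11, Dnajb9, Cxcl2, Hapln4, Nphs1 and Ints13, ranged from -1.48 to -1.30 by channels and from -0.38 to -0.06 within arrays. Dnajb9, a co-chaperone of the endoplasmic reticulum, read 12841, 4670 and 5903 at 14 d against 36687, 12959 and 13764 at 7 d. The first channel of both groups was the brightest, and it was the only Cy5 channel of each group. Vip read 269, 200 and 219 at 7 d and was higher at 14 d by 1.12 ± 0.26 (adjusted p = 0.0154), with 1.03 within arrays, not called.

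**Figure D4:**
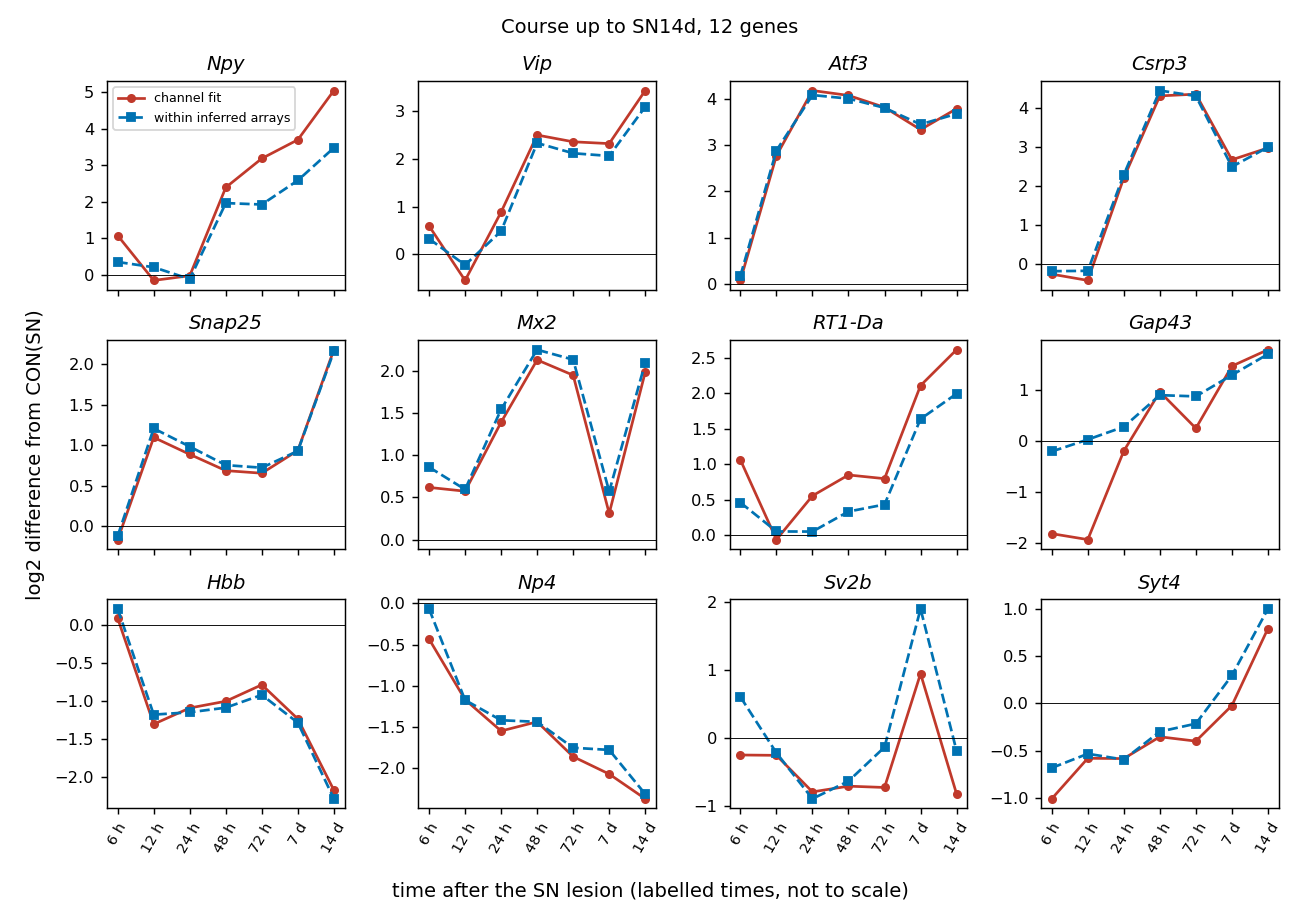
Log2 difference from CON(SN) at the 7 labelled times after the SN lesion (evenly spaced, not to scale) for 12 genes, by the channel fit (red circles) and within the inferred arrays (blue squares). Npy, Snap25, Gap43 and Syt4 have their highest value at 14 d by both fits, Hbb and Np4 their lowest, and Mx2 is high at 48 h, 72 h and 14 d with a low value at 7 d.

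The courses place these values among the earlier times, all of which share the same control channels and were not tested against each other. Npy stood at 2.40 at 48 h, 3.19 at 72 h and 3.70 at 7 d before 5.05 at 14 d. Snap25 lay between 0.66 and 1.10 from 12 h to 7 d and at 2.18 at 14 d. Atf3 was at 2.78 at 12 h, reached 4.19 at 24 h and was at 3.79 at 14 d. Csrp3 had 4.34 at 72 h, 2.67 at 7 d and 2.97 at 14 d. RT1-Da was at 0.80 at 72 h, 2.11 at 7 d and 2.62 at 14 d. Hbb had -1.31 at 12 h, -0.79 at 72 h, -1.24 at 7 d and -2.18 at 14 d, and Np4 went from -1.17 at 12 h to -2.07 at 7 d and -2.37 at 14 d.

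The comparison with the other lesion at the same time asks which changes depended on the branch that was cut. Each lesion was taken against its own control, as an interaction. In the channel fit 256 probes were called (3.03%), 1.42% with a higher and 1.61% with a lower change after the SN lesion. The within-array fit called 94 (1.11%), of which 0.982% had a higher and 0.13% a lower change, and 40 were called by both fits. A further fit left out DR14d replicates 2 and 3, DR48h replicate 4 and DR72h replicate 3, channels that earlier results of these data had put apart. It kept DR14d replicate 1 alone, so no count of calls is given for it. Without DR14d replicate 1 the channel fit called 882 probes and without DR14d replicate 2 it called 55.

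The DR arrays were inferred less clearly than the SN arrays, and the fitted values of DR14d correlated with the deposited coefficients at 0.652 across probes, against 0.982 for SN14d. Of the 16 genes with the largest rises 12 had a called interaction by channels and 11 within arrays. These genes were chosen by their SN14d change, which is itself a term of the interaction, so nothing is read from the count. Atf3 read 303, 334 and 271 in DR14d against 145, 150 and 146 in CON(DR), a change of 1.04, and its interaction was 2.75 ± 0.32 (adjusted p = 3.12e-07) with 2.87 within arrays. Vip read 39, 45 and 55 against 51, 29 and 31, a change of 0.36, with an interaction of 3.08 ± 0.37 (adjusted p = 8.71e-07), of uncertain size because all channels but those of SN14d lay below the lower quartile. Csrp3 read 57, 123 and 123 against 70, 83 and 90, with an interaction of 2.73 ± 0.29 (adjusted p = 5.66e-08). The DR14d and CON(DR) channels overlapped for Vip and Csrp3 and not for Atf3.

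Npy and Gal had the largest interactions by channels. Npy read 405, 620 and 561 in DR14d against 109, 150 and 262 in CON(DR), a change of 1.68, and the interaction was 3.37 ± 0.65 (adjusted p = 0.00267) with 2.27 within arrays. Gal read 606, 421 and 540 against 491, 547 and 244, a change of 0.36, and the interaction was 3.33 ± 0.94 (adjusted p = 0.0414) with 2.37 within arrays. Without the 4 DR channels named above the interaction was 2.89. The interaction was not called in 8 of the 12 fits that left out 1 channel of the groups compared (2.34 to 3.50). RT1-Db1 had 444, 397 and 514 in DR14d against 874, 749 and 488, and its interaction was 2.10 ± 0.29 (adjusted p = 9.71e-06) with 1.82 within arrays. RT1-Da had 2.07 ± 0.48 (adjusted p = 0.0127) with 2.01 within arrays, and lost its call without CON(SN) replicate 2 (1.46) or SN14d replicate 1 (1.89). Nkx2-5, a homeobox gene of heart development, had 2.15 by channels but 0.55 within arrays, not called there, and lost its call by channels without CON(DR) replicate 3 (1.79), DR14d replicate 2 (1.87), DR14d replicate 3 (2.05) or SN14d replicate 1 (2.15).

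Snap25, Mx2, Serpina3n and Vgf were the 4 of the 16 rises whose interaction was not called by channels. Snap25 read 6250, 8622 and 4068 in DR14d against 1629, 1527 and 1861 in CON(DR), a change of 1.86, and its interaction was 0.33 ± 0.28 (adjusted p = 0.567). A p that misses the threshold does not show equal changes. Mx2 had a DR14d change of 1.19 and an interaction of 0.80 ± 0.33 (adjusted p = 0.186). Vgf had 0.99 and 0.82 ± 0.30 (adjusted p = 0.117). Reg3b had a DR14d change of 1.86 and an interaction of 1.69 ± 0.41 (adjusted p = 0.019), which was not called within arrays (2.10, adjusted p = 0.0853).

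The changes of the named falls after the DR lesion were not tested on their own. In the channel fit they were -1.38 for Defa5, -1.27 for Np4, -1.06 for Mcpt8, -1.02 for Mcpt9, -0.95 for Camp and -0.93 for RatNP-3b. They were -0.85 for S100a8, -0.78 for Mcpt10, -0.21 for Mt3, -0.14 for Trim2 and 0.01 for Azgp1. Of the 12 interactions, which hold the SN14d change that chose the genes, 1 was called by channels and 1 within arrays. By channels it was Hbb, which read 5468, 4232 and 4533 in DR14d against 7937, 10646 and 10260, a change of -1.02, with an interaction of -1.16 ± 0.27 (adjusted p = 0.0147; within arrays -1.41, adjusted p = 0.0509). Within arrays it was Np4, at -1.47 (adjusted p = 0.0154), against -1.10 ± 0.34 by channels (adjusted p = 0.0585).

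The 8 most negative interactions by channels were Sv2b, Scd2, Fbln2, Cap1, Necab1, Phgdh, Gla and Rhoa. None of them was called within arrays, where they ran from -2.12 to -0.69. In a further fit with the inferred array as a random block all 8 were called, from -2.21 to -0.91. That fit used the same channels that chose them. Scd2, a fatty acid desaturase of membrane lipid synthesis, read 24891, 40755 and 31436 in DR14d against 10859, 12918 and 11109 in CON(DR), and 11484, 14393 and 10744 in SN14d. Its interaction was -1.80 ± 0.29 (adjusted p = 0.00041). None of the 8 was called in SN14d against CON(SN). Sv2b had a change of -0.82 after the SN lesion and 1.62 after the DR lesion, and the corresponding changes of Phgdh were -0.45 and 0.99.

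**Figure D5:**
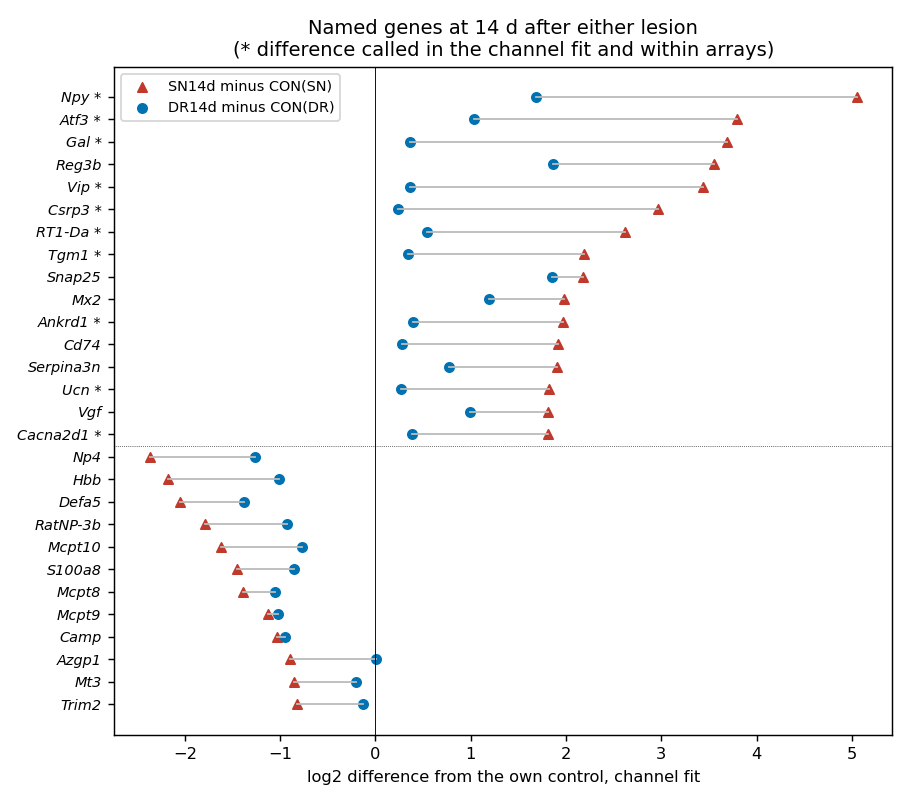
Log2 difference from the own control at 14 d after the SN lesion (red triangles) and the DR lesion (blue circles), by the channel fit, for the 16 named rises (above the dotted line) and 12 named falls. A star marks an interaction called by channels and within arrays. Vip, Csrp3 and Ucn lie at 0.36, 0.24 and 0.27 after the DR lesion, while Snap25 lies at 2.18 and 1.86.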

How the data were processed

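RNA of pooled ganglia was hybridised to 2-colour arrays, with Cy3 and Cy5. The authors deposited intensity values on a linear scale, normalised in a way not given in the sources used here. The authors' deposited log2 coefficients against time zero and their standard errors came from limma (version not stated), per the submitters' processing notes. As planned for linear values, log2 was taken with no pseudocount, further normalisation or filter. Depth has no counterpart on arrays, and their number limits the precision.

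Fits used limma 3.58.1 in R 4.3.3 (lmFit and eBayes, Benjamini-Hochberg over 8455 probes). The annotation listed 7075 probes, 6907 with 1 gene symbol, 168 with several (not named) and 1380 unlisted; 6885 symbols were updated by gene identifier and 22 kept. That gave 6028 genes, 751 of them with several probes, and the probe with the highest mean stood for its gene.

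The 12 SN and 14 DR arrays were inferred by joining each Cy3 with the Cy5 channel whose log2 difference lay nearest to that of the deposited coefficients. All joins were mutual best matches, with median absolute deviations of 0.0528 to 0.0927 for SN against 0.1161 to 0.2277 for the next best, and 0.1002 to 0.1806 for DR against 0.2013 to 0.2401. Fitted and deposited coefficients correlated across probes at 0.982 for SN14d and 0.652 for DR14d. A further fit took the inferred array as a random block (correlation 0.774). The deposited coefficients helped to choose the joins, so the within-array values are not independent of them.

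On simulated data 79 of 100 probes changed by 1 log2 unit and 97 of 100 changed by 2 were called in SN14d against CON(SN). The simulated noise was independent between channels, whereas real channels of an inferred array correlated at 0.774. No spread between pools was simulated, so these shares need not hold for the real data. Genes were named by rule: the 16 largest called rises and 12 largest called falls without overlap of channels, 8 per direction for the other comparisons, up to 4 called members (or the 2 largest where none was called) of each of 28 lists (898 genes, 667 measured), and 11 known injury genes. The comparison, the lists and the rules were chosen with earlier results of these data known. Exceptions are marked as named after their values were seen. One of the 6 largest rises outside the lists is not reported here.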

Additional observations from a re-analysis of the deposited data

Results flagged for a closer look

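At 14 d the change after the SN lesion differed from that after the DR lesion for 31 of the genes named. The measure was the interaction of the channel fit, at an adjusted p below 0.05. Many of the named genes were chosen by this interaction or by the SN14d change, which is a term of it. Nothing is therefore read from the count, and 3.03% of all probes were called. In 19 of the 31 genes the SN14d change was higher, and 13 of these were also called within arrays. The log2 interactions of these 13 were 3.37 for Npy, 3.33 for Gal, 3.08 for Vip, 2.75 for Atf3, 2.73 for Csrp3, 2.10 for RT1-Db1, 2.07 for RT1-Da, 1.85 for Tgm1, 1.58 for Ankrd1, 1.55 for Ucn, 1.54 for RT1-Ba, 1.43 for Cacna2d1 and 0.85 for Csf1. The 6 others, not called within arrays, were Nkx2-5 at 2.15, Lgals2 at 1.81, Reg3b at 1.69, Cd74 at 1.63, Gfra1 at 1.24 and Csf1r at 0.88.

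In 12 genes the interaction was negative, and none of the 12 was called within arrays. Their values were -2.44 for Sv2b, -1.80 for Scd2, -1.58 for Fbln2, -1.45 for Cap1, -1.44 for Necab1, -1.44 for Phgdh, -1.42 for Gla, -1.42 for Rhoa, -1.18 for Htr3a, -1.16 for Hbb, -1.15 for Avil and -0.95 for Cryab. Without the 4 DR channels that earlier results had put apart, DR14d kept replicate 1 alone, so only signs and sizes are given. All 19 positive interactions stayed positive, from 0.8 (Csf1) to 3.67 (Npy). All 12 negative ones stayed negative, from -2.82 (Sv2b) to -0.69 (Fbln2). The genes were chosen by the fit to all channels, which shares most of its channels with this one. The kept signs are therefore no separate support. With the inferred array as a random block, a fit chosen after seeing the data, every flagged gene but Htr3a was called. That fit used the same channels that chose the genes, so it is no separate support either. The cause of the difference between the fits was not tested. Groups of 3 channels were not tested for outlying channels.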

How the results depend on the processing

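Counts of called probes are given per setting. For SN14d against CON(SN) the 153 calls stayed within 1.5 times under 8 settings (SN channels only 213, dim probes removed 147, no dye term 130, a pseudocount of 32 with 146, quantile normalisation 144, the replicate block 154, 185 with the authors' deposited values and within arrays 130). They became 233 with the array as random block, 73 with only the groups compared, 410 within the SN arrays alone and 71 within arrays with no dye term. Leaving out 1 channel gave 82 to 117 (82 without SN14d replicate 1, 97 without CON(SN) replicate 3), and leaving out 1 array 67 to 104, with 100 in between. In all 6 fits that left out 1 channel, 55 higher and 10 lower probes were called.

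For SN14d against SN7d the 218 calls became 135 with the array as random block, 64 with only the groups compared, 36 within arrays and 3 within arrays with no dye term. Leaving out 1 channel gave 46 to 674 and leaving out 1 array 0 to 24, with 21 in between. The 0 was found with limma without the array of SN14d replicate 1. Calls were 62 without SN14d replicate 1, 123 without SN14d replicate 3, 67 without SN7d replicate 2 and 49 without SN7d replicate 3. Dnajb9 (0.00) and Nphs1 (0.09) changed sign within arrays with no dye term, and Cxcl2 (0.04) and Nphs1 (0.03) with 1 array left out. The authors' values were not run for this difference, since its standard error was not analysed here.

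For the interaction with DR14d the 256 calls became 456 with the array as random block, 149 with no dye term, 69 with only the groups compared, 397 with the replicate block, 128 with the authors' deposited values, 94 within arrays, 13 within arrays with no dye term and 18 without the 4 DR channels. Leaving out 1 channel gave 55 to 882. Not every same-numbered pair of channels deviated together (correlations of -0.004 to 0.093 for CON(SN), -0.146 to 0.231 for SN7d and -0.018 to 0.314 for DR14d, where replicates 1 and 3 correlated best with their own number), so the numbers were not taken as pairs; the replicate block gave 205 calls for SN7d. The causes of these shifts were not tested. The single pool per group, the unknown normalisation and the inferred layout limit all results. The array block, the further within-array fits and the SN channels for SN7d were chosen after seeing the data.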

Other observations

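Of the 121 genes called against CON(SN), 67 belonged to none of the lists, 57 of them higher and 10 lower. Of the 57, 25 were also called within arrays. The genes given next are from the 6 largest rises among them and were picked after their values were seen. Cat, which encodes catalase, the peroxisomal enzyme that breaks down hydrogen peroxide, read 1023, 791 and 732 against 249, 260 and 306, a log2 difference of 1.63 ± 0.16 (adjusted p = 1.63e-09) with 2.02 within arrays. Hamp, which encodes the iron-regulating peptide hepcidin, read 331, 347 and 336 against 120, 111 and 110, a difference of 1.57 ± 0.23 with 0.83 within arrays. Cdh2, N-cadherin, had 1.35 ± 0.22 and was not called within arrays (0.78).

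Cd6, a lymphocyte surface protein, read 146, 112 and 75 against 57, 33 and 41, a difference of 1.33 ± 0.21. Its control channels all lay below the lower quartile of the probes, so the size of the difference is uncertain. Gadd45g, a stress gene related to Gadd45a, had 1.31 ± 0.18, and both were also called within arrays. A further 28 genes were called within arrays and not by channels. One of them, named after its values were seen, was Tspo, the mitochondrial translocator protein used as a marker of reactive glia and macrophages. Tspo read 1136, 905 and 968 against 350, 352 and 423 and had 1.57 within arrays against 1.42 ± 0.54 by channels.

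A group of 137 probes had within-array values of -0.9 or lower and channel values between -1 and 0, with medians of -1.15 and -0.66. Of these 134 had no gene name, and 6 were called within arrays. Their median difference of Cy5 from Cy3 over all channels was -1.09, against 0.00 over all probes. What these probes measure is not given in the sources used here.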
